A study of Mus musculus with 8 samples.

Results

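The Wnt pathway genes described here are 51 genes that encode secreted Wnt ligands with the proteins that sort and enhance them, their receptors, the intracellular mediators of the signal and the secreted antagonists. They were chosen by symbol, matched to 51 of the 52325 gene identifiers in the deposited files and grouped by role into 9 ligands, sorting proteins and R-spondins, 18 receptors, 15 intracellular mediators and 9 secreted antagonists. RNA was sequenced from rib (costal) chondrocytes of mice 7 d old, in 4 libraries of wild-type controls (WT) and 4 of *Mir140*-null mice. Both genotypes are labelled with the strain background C57BL/6J and neither received a treatment. The null allele is a germline deletion of the *Mir140* locus made with CRISPR/Cas9 in zygotes of mixed C57BL/6 and CBA/Ca background, which removes every miRNA of the locus in all cells, and the WT and null lines were derived from crosses of heterozygous animals after backcrossing. The cells were released from rib cartilage with collagenase and not sorted. The labels do not say whether a library came from 1 mouse or several, so the p-values given here measure the spread between these libraries.

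Wnt proteins are lipid-modified by Porcupine, carried to the surface by Wntless and bound by Frizzled receptors. Together with LRP5 or LRP6 the receptor stops a complex of Axin, APC and GSK3 from marking β-catenin for destruction, and β-catenin then acts with TCF and LEF factors on target genes. A β-catenin-independent branch runs through ROR receptors, Dishevelled and the formin DAAM1 to the cytoskeleton. In cartilage the pathway is known for its part in chondrocyte maturation, and Frzb and Wif1 are antagonists that chondrocytes themselves secrete.

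Transcript levels of 5 of these genes rose in *Mir140*-null chondrocytes and none fell at the threshold used. The 5 are 10.9% of the 46 tested, beside 10.5% of all genes tested, so their number is near the background. *Wnt11*, a ligand best known from β-catenin-independent signalling, rose most, with a mean of 7.43 ± 1.13 TPM (SD, n = 4) in WT and 23.9 ± 6.43 TPM in *Mir140*-null libraries. *Ror1*, a receptor tyrosine kinase of that branch, went from 1.04 ± 0.25 to 3.07 ± 0.62 TPM, and *Daam1* from 14.5 ± 3.60 to 27.9 ± 1.61 TPM. Smaller rises were called for the ligand *Wnt10b* and the scaffold *Axin1*. TPM, the share of a library's transcripts that a gene takes, is scaled to transcript length, so levels of different genes can be set side by side.

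The miRNAs that the null mice lack include the forms of miR-140-3p, and a match to the seed (bases 2 to 8) in a 3′UTR is how a miRNA of an animal cell usually finds a transcript. The canonical form, miR-140-3p.2, is annotated by RefSeq at chr8:107551288-107551308 of GRCm38.p6 (plus strand), and miR-140-3p.1 starts 1 base further 3′. Both are shown because that shift changes the seed, written in capitals.
miR-140-3p.2: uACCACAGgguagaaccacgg
miR-140-3p.1: aCCACAGGguagaaccacgg
miR-140-5p is the other strand of the same precursor. The 7-base sites searched, on the transcript strand only, were CTGTGGT for miR-140-3p.2 and CCTGTGG for miR-140-3p.1, and each becomes an 8-base site when an A follows. A stretch that reads CCTGTGG and then T holds both sites.

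For each gene its longest 3′UTR was taken (GENCODE M21, mm10). Among the 51 genes, 14 (27.5%) held a miR-140-3p.1 site and 14 (27.5%) a miR-140-3p.2 site. In the 46 that were tested the shares were 26.1% and 30.4%, beside 20.2% and 19.0% of the 12988 tested genes that have a 3′UTR. The median 3′UTR was longer in the Wnt pathway genes, at 1712 bases (1721 in the 46 tested) against 1159. The 8-base miR-140-3p.1 site was found in 6 of the genes (11.8%, or 13.0% of the 46 tested, against 5.77%). The 30-base windows around it are shown with the site in capitals.
*Daam1*, chr12:71991227-71991256, plus strand: tggttgggtttCCTGTGGAgagagtagttt
*Gsk3b*, chr16:38244489-38244518, plus strand: tattctctatcCCTGTGGAcgtaaagacac
*Fzd2*, chr11:102606950-102606979, plus strand: ccgacgaggggCCTGTGGAagctgttggat
*Wnt5a*, chr14:28526794-28526823, plus strand: ggatgacacaaCCTGTGGAcaagagctata
*Wnt5b*, chr6:119432993-119433022, minus strand: gacccagaggcCCTGTGGAaagacctgata
*Dvl2*, chr11:70011254-70011283, plus strand: ctttcctttgtCCTGTGGAgagaaggggga
Among these 6 genes *Daam1* alone was called, where 10.5% of all genes tested were called higher. Log2 fold changes were 0.93 for *Daam1*, 0.45 for *Gsk3b*, -0.21 for *Fzd2*, -0.23 for *Wnt5a*, -0.02 for *Wnt5b* and -0.23 for *Dvl2*. Of the other called genes, *Axin1* held a 7-base miR-140-3p.1 site and *Wnt10b* a 7-base miR-140-3p.2 site.
*Axin1*, chr17:26195491-26195520, plus strand: gagcaggggatCCTGTGGgggcctctatat
*Wnt10b*, chr15:98771386-98771415, minus strand: ggctatttataCTGTGGTctctatgtcgac
Neither site was in the 3′UTRs taken for *Wnt11* and *Ror1*, 1908 and 2520 bases long. Sites of miR-140-5p were not searched in any gene. A match of letters is not evidence of binding. *Ror1* and *Wnt9a* are on the list of predicted miR-140-5p targets used in the study, whose lists were built on human sequences. Its miR-140-3p.1 list holds *Daam1*, *Gsk3b*, *Wnt9a*, *Lrp6*, *Fzd2* and *Znrf3*, and its miR-140-3p.2 list *Daam1* and *Wnt9a*. Of all these listed genes, only *Ror1* and *Daam1* were called, both higher, beside 10.5% of all genes tested. So few listed genes cannot show whether predicted targets were called more often than other genes.

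Genotypes were compared with limma on log2(TPM + 1), over all 17177 genes that reached 0.5 TPM in 4 or more of the 8 libraries, two-sided, with Benjamini-Hochberg adjustment, and a gene was called at an adjusted p under 0.05. The pseudocount of 1 makes the fold change of genes near 1 TPM smaller than their ratio of TPM. Of the 51 genes, 46 were tested. *Fzd3*, *Rnf43*, *Dkk1*, *Dkk2* and *Sost* lay below the minimum. No gene of the set was called lower, where 6.4% of all genes were. At an unadjusted p under 0.05, limma gave 12 higher and 1 lower, beside 19.0% and 14.9% of all genes. The 2 genotypes did not overlap, with all *Mir140*-null libraries above all WT libraries, for 9 genes (background 15.7%), and *Frzb* was the only gene with all of them below (background 10.2%). The 46 genes had a median log2 fold change of 0.01, and that of all genes was -0.01.

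By role, 2 of 9 ligands, sorting proteins and R-spondins, 1 of 16 receptors tested, 2 of 15 intracellular mediators and none of 6 antagonists tested were called. All these calls were higher, where 10.5% of all genes tested were, and the counts are too small to set the roles apart. In the same order of roles, median log2 fold changes were -0.02, -0.07, 0.29 and -0.44, and 11 of the 15 mediators had a positive value. Without *Mir140*-null replicates 1 and 2, which have low fibroblast and perichondrium markers, the medians were 0.15, 0.15, 0.24 and -0.05, and those of the 46 genes and of all genes were 0.21 and 0.07. The signs of the ligand and receptor medians and the size of the antagonist median thus rest on those libraries.

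**Figure D1:**
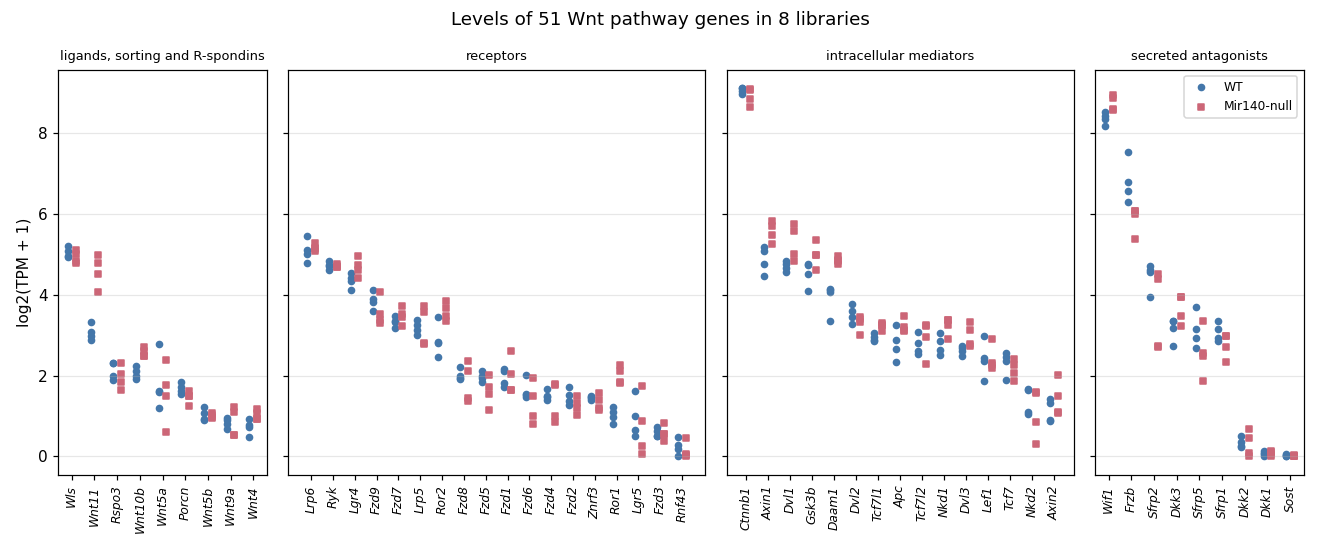
Level of each of the 51 genes in log2(TPM + 1), with 1 point for each of the 4 WT (blue circles) and 4 *Mir140*-null (red squares) libraries, in panels by role and ordered by level. *Ctnnb1* and *Wif1* are the most abundant genes, and the genotypes stand apart for *Wnt11*, *Ror1* and *Daam1*.

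**Figure D2:**
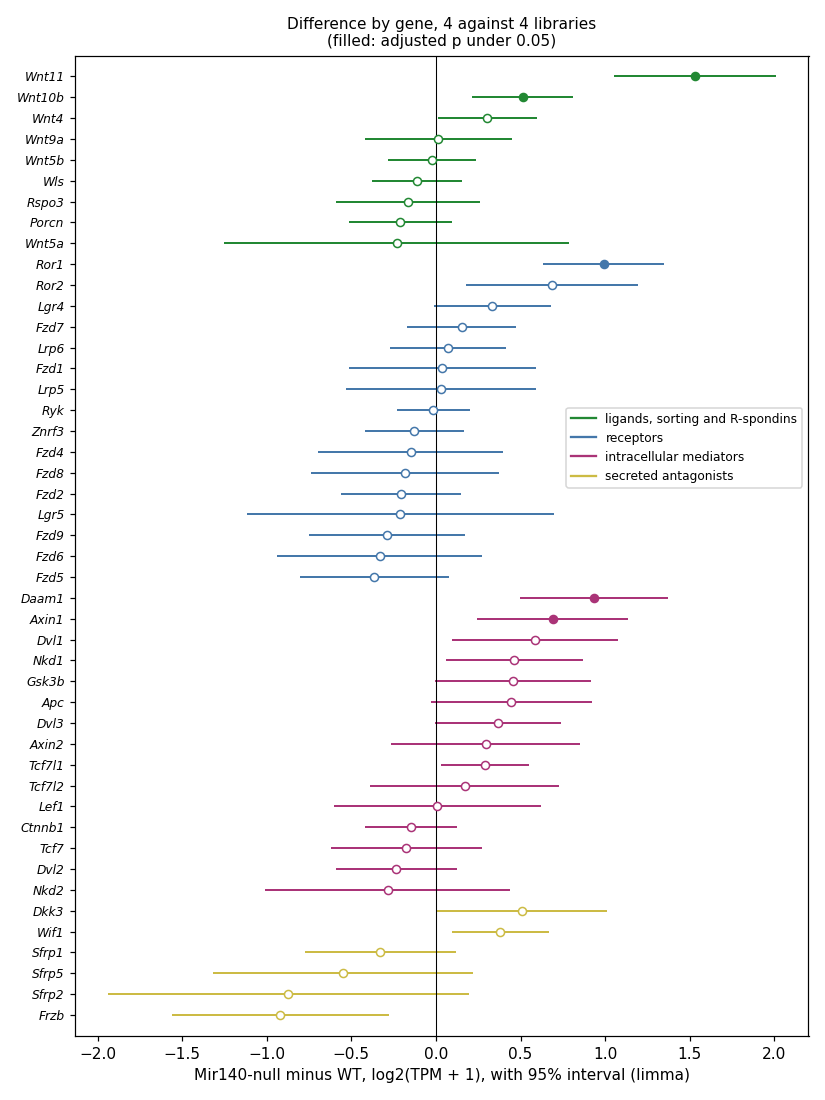
Difference between *Mir140*-null and WT libraries in log2(TPM + 1) for the 46 tested genes, with bars for limma's 95% interval, colours for the role and filled points for the 5 genes with an adjusted p under 0.05. *Wnt11* lies furthest right at 1.53, and *Frzb* furthest left at -0.92 is not called.

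The libraries differ in more than the labelled genotype. *Mir140* itself was listed at 0 in all libraries except the library labelled *Mir140*-null replicate 2, at 8.86 TPM, so its level does not check the labels. The study genotyped its mice by PCR and assayed mature miRNAs of the locus by qRT-PCR, measurements not used here. All 8 chondrocyte markers were present in every library, with summed levels of 54848 to 69096 TPM in WT and 40702 to 55641 TPM in *Mir140*-null libraries. *Col2a1* alone gave 84.6% to 89.2% of these sums, and the markers of the list did not move together. *Col9a1* was lower in all *Mir140*-null libraries, at 2968 to 3448 TPM in WT and 2090 to 2777 TPM in *Mir140*-null libraries. So was *Hapln1*, at 339 to 378 TPM in WT and 215 to 270 TPM in *Mir140*-null libraries. *Acan* was higher, at 447 to 681 TPM in WT and 876 to 1085 TPM in *Mir140*-null libraries. *Col2a1*, *Sox9*, *Cnmd*, *Matn1* and *Matn3* overlapped. The 6 fibroblast and perichondrium markers summed to 3521 to 6389 TPM in WT and to 881 and 1057 TPM in *Mir140*-null replicates 1 and 2 and 5602 and 4241 TPM in replicates 3 and 4. In replicates 1 and 2, 5 of these 6 markers lay below the other 6 libraries, *Pdgfra* lay above them, and none was at 0. In bulk RNA, fewer cells of a type and less RNA per cell cannot be told apart. Mitochondrial genes took 4.06% to 6.99% of TPM in WT and 8.41% to 10.1% in *Mir140*-null libraries. Without *Mir140*-null replicates 1 and 2, a comparison chosen after seeing the data, *Wnt11* and *Ror1* were the 2 Wnt pathway genes called, and 2.08% of all genes were called higher.

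*Wnt11* (chr7:98835112-98855195, plus strand) is protein-coding, like all genes named here with a position. It was at 6.83, 7.47, 6.41 and 9.0 TPM in the WT libraries, in the order of their replicate numbers, and at 26.6, 30.9, 15.9 and 22.0 TPM in the *Mir140*-null libraries. The same order is kept for every gene. Every *Mir140*-null library lay above every WT library, and replicates 1 and 2, which have the low fibroblast markers, were the highest. The ratio of mean TPM was 3.21, and the log2 fold change was 1.53 ± 0.21 (SE, limma adjusted p = 0.00651). *Wnt11* was called under all 16 alternatives, with adjusted p from 0.00174 to 0.0398, and at 1.24 ± 0.19 without replicates 1 and 2 (adjusted p = 0.0386).

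The share of *Wnt11* in the summed TPM of the 6 Wnt ligands was 42.5% to 51.3% in WT and 61.5% to 77.8% in *Mir140*-null libraries. The other 5 ligands together gave 7.10 to 12.2 TPM in WT and 7.61 to 13.1 TPM in *Mir140*-null libraries. The groups thus overlap for the other ligands as a sum. They are apart for the total of these 6, at 14.0 to 21.2 against 25.9 to 40.8 TPM. The shares and totals leave out ligands outside the 51 genes, such as *Wnt16*, which was called lower. *Wnt16* was at 3.61 to 10.1 TPM in WT and 0.06 to 3.03 TPM in *Mir140*-null libraries. The separation of the totals is therefore stated for the 6 only.

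*Wnt10b* (chr15:98770712-98778150, minus strand), a ligand of β-catenin signalling known from bone formation, was at 2.99, 3.30, 2.77 and 3.74 TPM in WT and 4.59, 4.65, 5.08 and 5.59 TPM in *Mir140*-null libraries. The groups were apart by less than 1 TPM, and the difference was 0.51 ± 0.13 on the log2 scale (SE, limma adjusted p = 0.0326). This call was lost without any 1 of the 8 libraries, where adjusted p reached 0.0879.

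*Wnt4*, a ligand expressed in joints and cartilage, was low and also without overlap, at 0.40, 0.89, 0.71 and 0.66 TPM in WT and 1.12, 1.26, 0.90 and 0.91 TPM in *Mir140*-null libraries. Its log2 fold change of 0.30 ± 0.13 was not called (limma adjusted p = 0.131). *Wnt9a*, a ligand of joint formation and on all 3 lists of predicted targets, was at 0.85, 0.73, 0.92 and 0.60 TPM in WT and 0.43, 0.43, 1.15 and 1.33 TPM in *Mir140*-null libraries. The *Mir140*-null values of *Wnt9a* lie on both sides of all WT values, with replicates 1 and 2 below them, and its log2 fold change was 0.01 (adjusted p = 0.966).

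*Wnt5a* and *Wnt5b*, ligands of the β-catenin-independent branch, overlapped between genotypes. *Wnt5a* varied widely within a genotype, from 1.28 to 5.87 TPM in WT and from 0.53 to 4.26 TPM in *Mir140*-null libraries. *Wnt5b* stayed between 0.85 and 1.32 TPM in all libraries.

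*Wls*, which encodes Wntless, was the most abundant gene of its role at 32.8, 36.1, 30.4 and 29.7 TPM in WT and 26.8, 27.8, 31.1 and 33.4 TPM in *Mir140*-null libraries. The groups overlapped, with a log2 fold change of -0.11 ± 0.11 (limma adjusted p = 0.514). *Porcn*, the acyltransferase Porcupine, lay between 1.39 and 2.59 TPM over all libraries, and *Rspo3*, a secreted enhancer of Wnt signals, between 2.15 and 3.98 TPM. In WT the order of levels in this role ran from *Wls* through *Wnt11* to *Rspo3*, *Wnt10b* and *Wnt5a*, where neighbours from *Rspo3* to *Porcn* overlap.

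Among receptors, the ROR genes had the 2 largest positive log2 fold changes. *Ror1* (chr4:100095791-100444765, plus strand) was at 0.73, 1.15, 0.97 and 1.32 TPM in WT and at 2.57, 2.55, 3.35 and 3.82 TPM in *Mir140*-null libraries. No library of either genotype came near the other group, and here replicates 3 and 4 were the higher ones. The ratio of mean TPM was 2.95, while the log2 fold change with the pseudocount was 0.99 ± 0.15 (SE, limma adjusted p = 0.00885). It was called in all 15 alternatives in which it was tested, and at 1.17 ± 0.16 without *Mir140*-null replicates 1 and 2 (adjusted p = 0.0320).

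*Ror2*, the paralogue that binds Wnt5a, was more abundant at 4.55 to 9.94 TPM in WT and 9.16 to 13.3 TPM in *Mir140*-null libraries. Only WT replicate 2 reached into the *Mir140*-null range. The log2 fold change of 0.69 ± 0.22 was not called (limma adjusted p = 0.0642) and became called without WT replicate 2 (adjusted p = 0.0284). The ratio of *Ror1* to *Ror2* TPM was 0.116 to 0.215 in WT and 0.193 to 0.379 in *Mir140*-null libraries, with overlap.

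**Figure D3:**
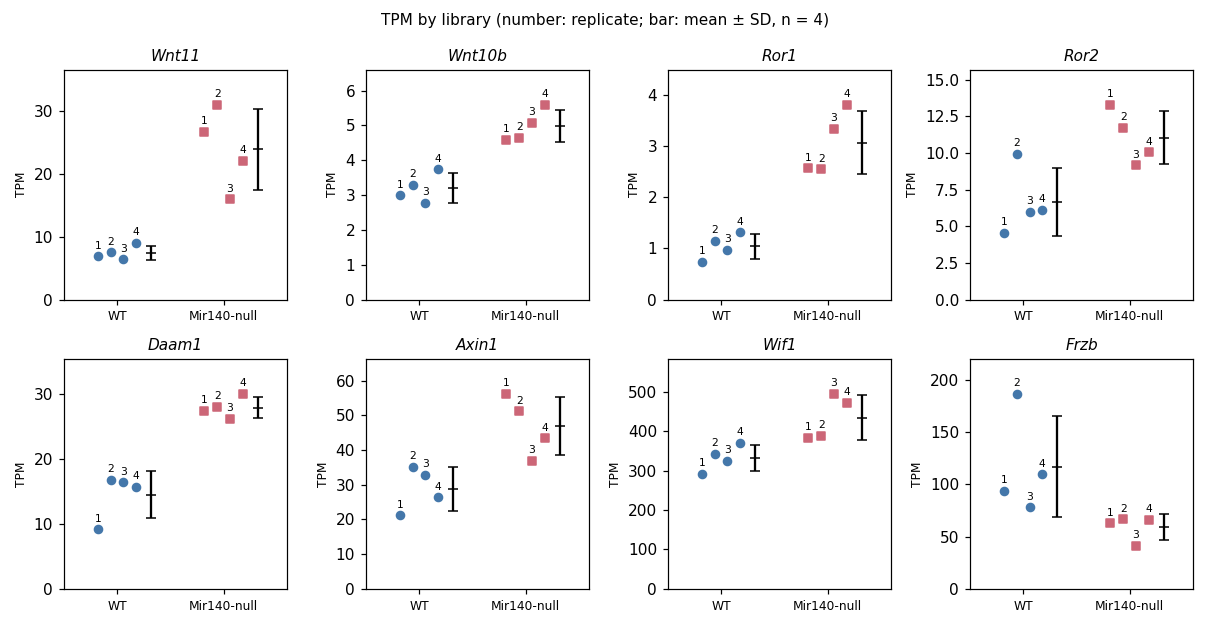
TPM of 8 genes in each library, with replicate numbers above the points and the mean ± SD (n = 4) as a bar beside each genotype, on linear axes that start at 0. *Wnt11*, *Wnt10b*, *Ror1*, *Daam1*, *Axin1* and *Wif1* have every *Mir140*-null point above every WT point, *Frzb* has every one below, and *Ror2*, drawn as the paralogue of *Ror1*, overlaps through WT replicate 2.

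The co-receptor *Lrp6*, the most abundant receptor gene, was at 26.5, 42.6, 33.6 and 31.5 TPM in WT and 32.7, 38.3, 34.6 and 33.9 TPM in *Mir140*-null libraries. The *Mir140*-null values lay within the WT range, with a log2 fold change of 0.07 and an interval of -0.26 to 0.41 (95%, limma). *Lrp5*, its relative, ranged from 6.98 to 9.48 TPM in WT and from 5.90 to 12.1 TPM in *Mir140*-null libraries.

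*Ryk*, an atypical kinase receptor, was at 27.6, 23.6, 25.9 and 25.3 TPM in WT and 25.1, 26.2, 25.0 and 24.8 TPM in *Mir140*-null libraries. It was among the steadiest genes of the set, with a log2 fold change of -0.02 and an interval of -0.22 to 0.19. *Lgr4*, a receptor of R-spondins, was at 16.3, 22.2, 20.3 and 19.2 TPM in WT and 20.3, 25.7, 23.7 and 30.0 TPM in *Mir140*-null libraries. Its values lay mostly higher in the *Mir140*-null libraries but overlapped, at 0.33 ± 0.15 on the log2 scale (limma adjusted p = 0.153).

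*Lgr5*, the other R-spondin receptor measured, did not exceed 2.33 TPM in any library. *Znrf3*, a ubiquitin ligase that removes Frizzled receptors from the surface and holds 3 miR-140-3p.1 sites, was at 1.78, 1.73, 1.83 and 1.64 TPM in WT and 1.63, 1.95, 1.29 and 1.23 TPM in *Mir140*-null libraries. *Mir140*-null replicate 2 lay above all WT libraries and the other *Mir140*-null libraries below them, and *Znrf3* was not called (log2 fold change -0.13 ± 0.12, limma adjusted p = 0.504). *Rnf43*, its partner ligase, did not exceed 0.39 TPM.

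None of the 8 Frizzled genes tested was called. *Fzd9* and *Fzd7* were the most abundant, at 11.2 to 16.5 and 7.99 to 10.1 TPM in WT, and together made up 55.6% to 62.5% of the summed TPM of *Fzd1* to *Fzd9* in WT. Their summed share in *Mir140*-null libraries spread wider, from 49.6% to 73.9%. *Fzd1*, *Fzd2*, *Fzd4*, *Fzd5*, *Fzd6* and *Fzd8* were each at 1.42 to 3.61 TPM in WT.

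*Fzd2*, with the 8-base miR-140-3p.1 site shown above, was at 2.28, 1.42, 1.88 and 1.57 TPM in WT and 1.03, 1.31, 1.82 and 1.51 TPM in *Mir140*-null libraries. It overlapped between genotypes, at -0.21 ± 0.15 on the log2 scale (limma adjusted p = 0.373). *Fzd5*, whose 3′UTR held the only 8-base miR-140-3p.2 site of the set, was at -0.36 ± 0.19 (adjusted p = 0.216).

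Of the 8 Frizzled genes tested, 6 followed the split within the *Mir140*-null libraries, and *Fzd7* and *Fzd9*, the most abundant, did not. *Mir140*-null replicates 1 and 2 both lay below the other 6 libraries for 15 of the 46 genes tested, 8 of them receptors (*Fzd1*, *Fzd2*, *Fzd4*, *Fzd5*, *Fzd6*, *Fzd8*, *Lrp5* and *Lgr5*), where 21.1% of all genes did so. They lay above the other 6 for 7 genes (*Wnt4*, *Wnt11*, *Ror2*, *Axin1*, *Gsk3b*, *Dvl1* and *Dvl3*), against 13.0% of all genes. These are the libraries with low fibroblast and perichondrium markers, at 881 and 1057 TPM in sum, and the part of that difference in these values was not tested. Without them the log2 fold changes of *Fzd4*, *Fzd6*, *Fzd8* and *Lgr5* turned from negative to positive, none of them called in either comparison.

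**Figure D4:**
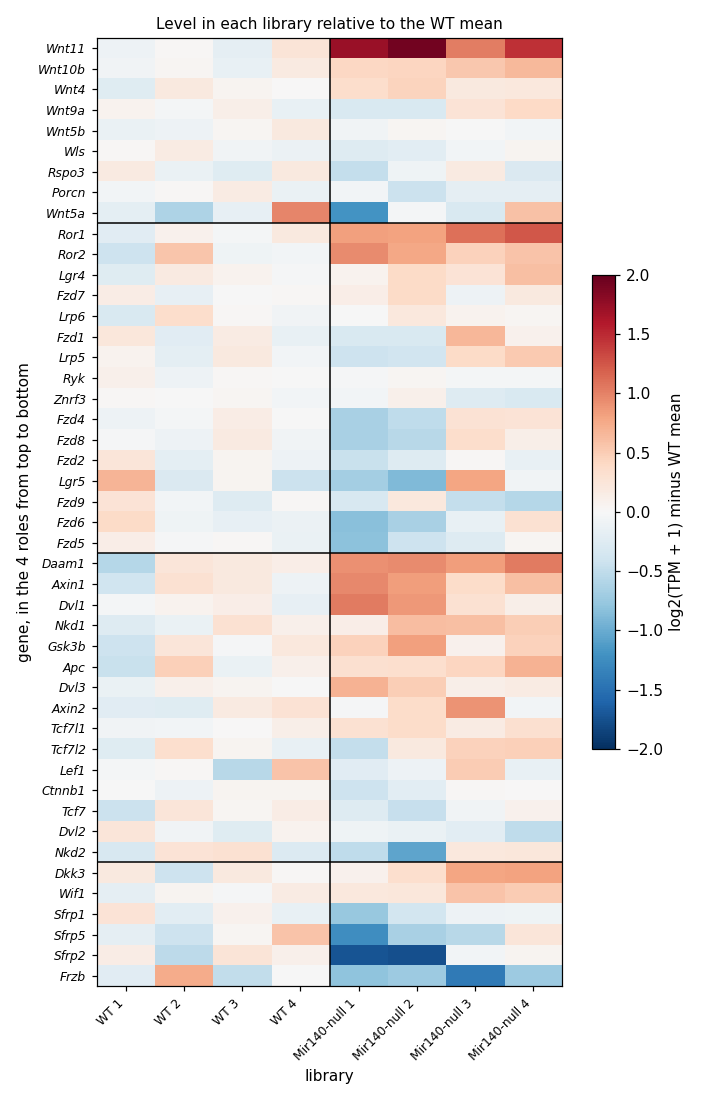
Level of the 46 tested genes (rows, in the 4 roles divided by lines) in the 8 libraries (columns), as log2(TPM + 1) minus the WT mean, from blue (lower) to red (higher). *Wnt11*, *Ror1*, *Daam1* and *Axin1* are red in all *Mir140*-null columns, while many receptors and *Sfrp2* are bluest in *Mir140*-null replicates 1 and 2.

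Of the intracellular mediators, *Daam1* (chr12:71831078-71992333, plus strand) changed most. Its TPM were 9.15, 16.8, 16.4 and 15.7 in WT and 27.4, 28.1, 26.2 and 30.0 in *Mir140*-null libraries. The *Mir140*-null libraries lay close together and well above all WT libraries, and WT replicate 1 lay below the other WT libraries. The ratio of mean TPM was 1.92 and the log2 fold change 0.93 ± 0.19 (SE, limma adjusted p = 0.0175). It was called in 15 of 16 alternatives, and without *Mir140*-null replicates 1 and 2 its size was the same to 2 digits, 0.94 ± 0.26, with an adjusted p of 0.0988. Both miR-140-3p forms have *Daam1* among their listed predicted targets, which were built on human sequences. The mouse 3′UTR taken here held a miR-140-3p.1 site and no miR-140-3p.2 site.

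Dishevelled proteins pass the signal from Frizzled to both branches. *Dvl1* was at 24.4, 26.4, 27.8 and 22.5 TPM in WT and 53.1, 46.6, 31.4 and 27.5 TPM in *Mir140*-null libraries. *Mir140*-null replicates 1 and 2 were far above WT and replicate 4 lay within the WT range. The log2 fold change of *Dvl1* was 0.58 ± 0.21 (limma adjusted p = 0.0931), which was called without *Mir140*-null replicate 4 and with 1 factor of unwanted variation, and it was 0.21 without replicates 1 and 2.

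*Dvl3* was at 4.61, 5.60, 5.42 and 5.13 TPM in WT and 9.02, 7.70, 5.71 and 5.92 TPM in *Mir140*-null libraries. The genotypes did not overlap, by a margin that replicates 3 and 4 made small, and *Dvl3* was not called (0.37 ± 0.16, limma adjusted p = 0.148). *Dvl2* was not called, at 8.75 to 12.6 TPM in WT and 7.08 to 9.89 TPM in *Mir140*-null libraries.

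In the β-catenin destruction complex, the scaffold *Axin1* (chr17:26138688-26195811, plus strand) was at 21.2, 35.2, 32.8 and 26.4 TPM in WT and 56.2, 51.2, 37.0 and 43.4 TPM in *Mir140*-null libraries. All *Mir140*-null libraries lay above all WT libraries, with *Mir140*-null replicate 3 close to WT replicate 2. The log2 fold change was 0.69 ± 0.19 (SE, limma adjusted p = 0.0440). This call lies near the threshold: leaving out 1 library at a time kept it only without WT replicate 2 or *Mir140*-null replicate 3, and without *Mir140*-null replicates 1 and 2 it was 0.48 ± 0.22 (adjusted p = 0.239).

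The kinase *Gsk3b*, on the miR-140-3p.1 list, was at 16.2, 26.1, 21.7 and 25.5 TPM in WT and 30.6, 39.7, 23.4 and 30.6 TPM in *Mir140*-null libraries. *Mir140*-null replicate 3 lay within the WT range, and the difference of 0.45 ± 0.20 was not called (limma adjusted p = 0.149). *Apc*, the large scaffold of the complex, ranged from 4.09 to 8.61 TPM in WT and 7.63 to 10.2 TPM in *Mir140*-null libraries. *Axin2*, a feedback inhibitor whose transcription β-catenin is known to drive, was at 0.84 to 1.69 TPM in WT and 1.10 to 3.06 TPM in *Mir140*-null libraries, with a log2 fold change of 0.29 and an interval of -0.26 to 0.85.

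*Ctnnb1*, which encodes β-catenin, was the most abundant gene of the set at 528, 498, 556 and 554 TPM in WT and 401, 461, 543 and 537 TPM in *Mir140*-null libraries. Replicates 1 and 2 lay below WT and replicates 3 and 4 within it, and the log2 fold change was -0.15 with an interval of -0.41 to 0.12 (95%, limma). The level of the transcript does not measure the protein, which is regulated by its destruction.

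The naked cuticle genes encode inhibitors that bind Dishevelled. *Nkd1* was at 4.65 to 7.35 TPM in WT and 6.46 to 9.46 TPM in *Mir140*-null libraries (0.46 ± 0.17 on the log2 scale, limma adjusted p = 0.102). *Nkd2* did not exceed 2.20 TPM and was not called.

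Of the TCF and LEF factors, *Tcf7l1*, which is known mainly as a repressor, was at 6.31, 6.37, 6.75 and 7.35 TPM in WT and 8.54, 8.92, 7.63 and 8.54 TPM in *Mir140*-null libraries. The genotypes did not overlap, but the difference was small, at 0.29 ± 0.11, and was not called (limma adjusted p = 0.106). *Lef1*, *Tcf7* and *Tcf7l2* overlapped, at 2.63 to 6.94, 2.73 to 4.93 and 4.75 to 7.52 TPM in WT.

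Secreted antagonists were far more abundant than ligands, with sums over the 9 genes of 435 to 561 TPM in WT and 466 to 592 TPM in *Mir140*-null libraries. *Wif1* and *Frzb* made up 88.8% to 94.3% of these sums in WT and 91.0% to 95.5% in *Mir140*-null libraries. Both the sums and these shares overlap between genotypes.

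*Wif1*, which encodes a protein that binds Wnt ligands directly, was at 292, 343, 325 and 371 TPM in WT and 383, 389, 495 and 472 TPM in *Mir140*-null libraries. All *Mir140*-null libraries lay above all WT libraries, replicates 1 and 2 only just. The log2 fold change of 0.38 ± 0.12 was not called (limma adjusted p = 0.0651), and it was called after median-ratio scaling and with 1 factor of unwanted variation.

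*Frzb*, a secreted Frizzled-related protein of cartilage, was at 93.9, 186, 78.1 and 109.5 TPM in WT and 62.7, 66.5, 41.0 and 66.2 TPM in *Mir140*-null libraries. Every *Mir140*-null library lay below every WT library, with WT replicate 2 high and *Mir140*-null replicate 3 low. The log2 fold change of -0.92 ± 0.28 just missed the threshold (limma adjusted p = 0.0557) and passed it with a filter at a mean of 5 TPM, with quantile normalization and with the replicate number as a block. It was -1.07 ± 0.38 without *Mir140*-null replicates 1 and 2 (adjusted p = 0.153). The ratio of *Wif1* to *Frzb* TPM was 1.84 to 4.16 in WT and 5.85 to 12.1 in *Mir140*-null libraries, without overlap.

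*Sfrp2*, another secreted Frizzled-related protein, shows the split within the *Mir140*-null libraries plainly, at 23.6, 14.4, 25.4 and 22.8 TPM in WT and 5.65, 5.54, 20.2 and 22.0 TPM in *Mir140*-null libraries. Replicates 1 and 2 lay far below all others and replicates 3 and 4 within WT. Its log2 fold change was -0.87 ± 0.46 (limma adjusted p = 0.223) with all libraries and -0.00070 ± 0.24 without replicates 1 and 2 (adjusted p = 0.999). *Sfrp1* and *Sfrp5* were also lowest in those libraries, at 4.01 and 5.52 TPM against at least 6.30 TPM elsewhere for *Sfrp1*, and at 2.67 and 4.56 TPM against at least 4.91 TPM for *Sfrp5*.

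*Dkk3*, a Dickkopf family member that is an unusual antagonist because it does not act through LRP6 like its relatives, ranged from 5.61 to 9.16 TPM in WT and from 8.42 to 14.5 TPM in *Mir140*-null libraries (0.51 ± 0.22, limma adjusted p = 0.142). *Dkk1*, *Dkk2* and *Sost*, antagonists that bind LRP5 and LRP6, were untested, at no more than 0.105, 0.61 and 0.040 TPM in any library. *Sost* is known from osteocytes, and the 5 osteoblast markers summed to no more than 16.9 TPM in any library.

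Other genes of the pathway were read from the same fit, from a list of 107 further ligands, receptors, antagonists, cofactors, planar polarity genes and known target genes. Of the 79 tested, 10 were called higher (12.7%) and 3 lower (3.80%), beside 10.5% and 6.4% of all genes, and their median log2 fold change was 0.00142. *Tnfrsf11b*, the decoy receptor osteoprotegerin, rose from 23.7 ± 3.91 to 65.1 ± 10.3 TPM (log2 fold change 1.42, limma adjusted p = 0.00497). *Cd44*, the hyaluronan receptor, rose from 93.9 ± 19.9 to 219.9 ± 22.3 TPM (1.24, adjusted p = 0.00699). Both are on the list as known targets of β-catenin signalling, of which 3 of 12 tested were called higher and 1 lower.

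*Notum*, an enzyme that strips the lipid from Wnt ligands, was at 15.0, 31.2, 27.1 and 29.3 TPM in WT and 63.5, 50.0, 40.4 and 62.1 TPM in *Mir140*-null libraries (1.07, limma adjusted p = 0.0259). *Tpbg*, a membrane inhibitor of the β-catenin branch, rose from 4.35 ± 0.78 to 10.03 ± 2.81 TPM (1.02, adjusted p = 0.0171). These are the 2 called of 7 further antagonists tested, and both groups of *Notum* and of *Tpbg* were free of overlap.

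The 3 genes called lower were the ligand *Wnt16*, the transcription factor *Jun* and the β-catenin cofactor *Bcl9*. *Wnt16* was at 7.65, 10.1, 3.61 and 9.23 TPM in WT and 0.06, 0.12, 3.03 and 0.70 TPM in *Mir140*-null libraries, so that *Mir140*-null replicate 3 came close to WT replicate 3 (-2.28 ± 0.46, limma adjusted p = 0.0179). *Jun* went from 965 ± 436 to 284 ± 81.0 TPM (-1.72, adjusted p = 0.0158), and *Bcl9* from 5.19 ± 1.06 to 3.08 ± 0.51 TPM (-0.59, adjusted p = 0.0441). Without *Mir140*-null replicates 1 and 2, 4 of the 79 genes were called higher and none lower (2.08% and 1.22% of all genes).

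Leaving out 1 library at a time gave 3 to 5 Wnt pathway genes called higher. The count was 3 without WT replicates 1, 3 or 4 and without *Mir140*-null replicates 1 or 2, and *Wnt11*, *Ror1* and *Daam1* were called in each of these 8 comparisons.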

How the data were processed

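RNA-seq of rib chondrocytes from WT and *Mir140*-null mice (7 d old, 4 libraries of each genotype) was re-analysed from processed files. The authors deposited TPM per Ensembl gene, made with Salmon (version not given in the sources used here) from single-end reads of a stranded mRNA library mapped to the mm10 transcriptome. The submitters' notes also name FastQC 0.11.7. These deposited TPM account for transcript length and sum to 1000000 per library once repeated lines are counted once. They do not include the later modelling of unwanted variation in the study. TPM hold no counts, so depth is unknown and no counting interval was computed.

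Groups follow the genotype labels. Symbols, positions and 3′UTRs came from GENCODE M21, which lists 99.8% of identifiers, and miRNA sequence from RefSeq GRCm38.p6, where miR-140-3p was matched. Genes that reached 0.5 TPM in 4 or more libraries were tested with limma 3.58.1 (R 4.3.3, log2(TPM + 1), empirical Bayes with an intensity trend, genotype only, two-sided, Benjamini-Hochberg over 17177 genes), and called at an adjusted p under 0.05. The script was tested on simulated data. Other steps used Python 3.11.15, NumPy 2.4.6, pandas 2.3.3 and matplotlib 3.10.9.

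The members, the further pathway list and the markers were chosen with earlier results of these data known. Values in every library are given for called genes, the 3 most abundant of each role, genes on the study's lists of predicted targets and genes without overlap, and by range for the others. Of the further pathway genes, the 4 largest called changes in each direction are named. *Ror2*, *Sfrp1* and *Sfrp5* were given more values after they had been seen.

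Alternatives were a pseudocount of 0.1, no filter, a mean of at least 5 TPM, median-ratio scaling, quantile normalization, the replicate number as a block, 1 factor of unwanted variation from residuals, and leaving out each library. Leaving out *Mir140*-null replicates 1 and 2 together was added after seeing the data.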

Additional observations from a re-analysis of the deposited data

Results flagged for a closer look

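In 4 of the 92 groups of 4 libraries checked (46 genes in 2 genotypes), 1 library lay far from the other 3 by Dixon's gap ratio at the 95% level, which chance does in about 1 in 20 groups. *Daam1* was at 9.15 TPM in WT replicate 1 and at 15.7 to 16.8 TPM in the other WT libraries. Without that library the log2 fold change of *Daam1* was 0.74 and remained called. *Frzb* was at 41.0 TPM in *Mir140*-null replicate 3 and at 62.7 to 66.5 TPM in the other *Mir140*-null libraries. *Lef1* was at 6.55 TPM in *Mir140*-null replicate 3 and at 3.57 to 3.97 TPM in the others of its genotype. *Fzd6* was at 3.05 TPM in WT replicate 1 and at 1.77 to 1.94 TPM in the other WT libraries.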

How the results depend on the processing

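Over 16 alternatives and the 46 tested genes, 650 of 716 results kept their direction and side of the threshold, 23 lost and 9 gained the call, and 34 changed sign, none of them called. By construction the log2 fold change could not move under the changed filters, the replicate block or the 1 factor. Only the call could change in those settings, so their kept directions say nothing about stability. *Wnt11* and *Ror1* were called wherever tested, *Daam1* in 15 of 16, *Axin1* in 5 of 16 and *Wnt10b* in 4 of 15. Members called higher (5 as reported) were 3 without the filter, 3 with a mean of at least 5 TPM and 2 without *Mir140*-null replicates 1 and 2. Members called lower (0 as reported) were 1 with a mean of at least 5 TPM and 1 with quantile normalization (*Frzb* in both). With 1 factor of unwanted variation, 1 was called lower (*Sfrp2*). That factor came from residuals after genotype, so it can change the error but not the fold change. Its values split *Mir140*-null replicates 1 and 2 (0.56 and 0.41) from 3 and 4 (-0.54 and -0.43). Without replicates 1 and 2 the log2 fold change of *Sfrp2* was -0.00070. Of the further pathway genes, 6 were called higher without the filter and 4 without *Mir140*-null replicates 1 and 2, and 7 were called lower with quantile normalization, 11 with 1 factor and 0 without *Mir140*-null replicates 1 and 2. All genes called higher and lower were 1797 and 1100 as reported, 977 and 539 without the filter, and 357 and 210 without *Mir140*-null replicates 1 and 2, and those called lower were 605 with a mean of at least 5 TPM and 2016 with 1 factor. Fewer genes or libraries enter some of these settings, and beyond that the cause was not tested. Median-ratio scaling and quantile normalization moved the median of all genes to 0.017 and 0.026.

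With the replicate number as a block, 3 members were called higher and 1 lower (*Frzb*), 4 and 1 of the further pathway genes, and 671 and 454 of all genes. Libraries with the same number did not deviate together (correlations of 0.031, 0.016, 0.069 and -0.0091 across genes, none the best with its own number). No pairing by number was thus seen, which does not exclude one.

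Log2 fold changes that changed sign were *Wnt9a* (-0.040) with a pseudocount of 0.1, *Ryk* (0.018) with median-ratio scaling, *Wnt5b* (0.14), *Lrp6* (-0.086) and *Znrf3* (0.026) with quantile normalization, and, without *Mir140*-null replicates 1 and 2, *Wnt5a* (0.15), *Wls* (0.0035), *Fzd4* (0.28), *Fzd6* (0.073), *Fzd8* (0.23), *Lgr5* (0.36), *Ctnnb1* (0.019), *Nkd2* (0.21) and *Tcf7* (0.012). With each library left out in turn, the ranges were 3 to 5 members, 6 to 10 further genes and 779 to 1553 of all genes called higher, and 1 to 4 further genes and 419 to 1214 of all genes called lower. In these fits the log2 fold change ran from -0.51 to 0.093 for *Wnt5a*, -0.069 to 0.040 for *Wnt5b*, -0.11 to 0.12 for *Wnt9a*, -0.17 to 0.15 for *Fzd1*, -0.29 to 0.017 for *Fzd4*, -0.54 to 0.015 for *Lgr5*, -0.13 to 0.18 for *Lrp5*, -0.031 to 0.19 for *Lrp6*, -0.052 to 0.020 for *Ryk* and -0.18 to 0.20 for *Lef1*.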

Other observations

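The split between *Mir140*-null replicates 1 and 2 and the other libraries was also present in the further genes of the pathway. Replicates 1 and 2 both lay below all 6 other libraries for 24 of the 79 genes tested and above them for 10, beside 21.1% and 13.0% of all genes. Among the 7 further receptors tested, 4 lay below in both (*Fzd10*, *Ptk7*, *Adgra2* and *Reck*), as did the antagonists *Dkkl1*, *Sfrp4* and *Shisa2*.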
